A study of Homo sapiens with 12 samples.

Results

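The genes described here are 10 transcription and RNA-binding factors known for pluripotency and stemness, chosen by name, which are SOX2, KLF4, MYC, NANOG, POU5F1, ZFP42, SOX9, KLF5, LIN28B and SALL4. All 10 had an entry among the 28747 gene identifiers counted in DU145 cells. DU145 is an established human prostate cancer line. There were 4 groups of cells, sequenced with 3 biological replicates each. In 2 groups the cells carried a control short hairpin RNA (shCtrl) and in 2 the hairpin labelled shSigma, whose effect is called the knockdown effect here. All cells had been infected with lentiviral particles and selected with puromycin as stable populations. Which of the study's hairpins the sequenced cells carried is not given in the sources used here, so hairpin and cell population cannot be told apart. Each hairpin was sequenced from bulk adherent cultures, kept in medium with serum, and from tumor spheres, grown without attachment or serum with insulin, FGF2 and EGF. Attachment, serum and growth factors therefore changed together and cannot be told apart.

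POU5F1 (OCT4), SOX2 and NANOG form the core circuit that keeps embryonic stem cells pluripotent, and they bind DNA at shared enhancers. SOX2 and POU5F1 together with KLF4 and MYC are the factors used to reprogram fibroblasts to pluripotency. SALL4 and ZFP42 (REX1) are zinc finger proteins of the same network, and LIN28B blocks the maturation of let-7 microRNAs. SOX9 and KLF5 act in epithelial progenitors, the prostate included. In prostate cancer SOX2 is known from lineage plasticity, and MYC is a common oncogene. The comparisons below ask how far these factors differed between tumor spheres and bulk cells, and between cells with the shSigma and the control hairpin.

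Of the members, 7 passed the filter on low counts over the 12 libraries, and 3 did not (NANOG, POU5F1 and LIN28B). The libraries held 16472722 to 26957777 counts, with a median of 19620493, and 3 counts were worth 0.115 to 0.176 CPM, the counts scaled to library size with TMM factors over all libraries. Replicates differed by more than sampling noise in every group.

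Markers of the line were checked in the same libraries. KLK3, which marks luminal prostate cells, held 0 to 2 counts in each library and CHGA, which marks neuroendocrine cells, held 0. Epithelial markers were present, with KRT8 at 234 ± 36.1 CPM (SD, n = 3) and KRT18 at 321 ± 12.2 CPM in adherent shCtrl cells, and basal KRT5 held 0 or 1 count. The summed level of the 10 epithelial markers was 1487 to 1809 CPM in adherent shCtrl, 2576 to 3480 CPM in adherent shSigma, 3088 to 3215 CPM in sphere shCtrl and 1652 to 1774 CPM in sphere shSigma libraries. The 12 proliferation markers summed to 3287 to 3419, 1878 to 2109, 1642 to 1866 and 1474 to 1575 CPM in the same order. Both lists moved with the groups, and their part in the results on the stemness factors was not tested. The epithelial sum covers opposite changes. With the knockdown in adherent cells 5 epithelial markers rose and 4 fell of 9 tested. At an adjusted p under 0.05, 50% of all genes tested there passed. KRT7 went from 640 to 1758 CPM there, while EPCAM fell from 235 to 30.9 CPM and ESRP1 from 75.4 to 2.57 CPM. In bulk RNA, fewer cells of a type and less RNA per cell cannot be told apart.

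Among the members, SOX2 and ZFP42 had the largest differences between groups, and SOX21, a relative of SOX2, was high in the same spheres. Their promoters are shown so that the starts of genes with on and off patterns can be compared. RefSeq's promoter table (GRCh38.p14) held a window for 6 of the 10 members, and MYC, POU5F1, SOX9 and SALL4 had none. The lines give the 250 bases before the start, 5′ to 3′ on the strand of the gene, with CpG dinucleotides in capitals. SOX2 lies on the plus strand (chr3:181711675-181711924), ZFP42 on the plus strand (chr4:187995521-187995770) and SOX21 on the minus strand (chr13:94712546-94712795).
SOX2: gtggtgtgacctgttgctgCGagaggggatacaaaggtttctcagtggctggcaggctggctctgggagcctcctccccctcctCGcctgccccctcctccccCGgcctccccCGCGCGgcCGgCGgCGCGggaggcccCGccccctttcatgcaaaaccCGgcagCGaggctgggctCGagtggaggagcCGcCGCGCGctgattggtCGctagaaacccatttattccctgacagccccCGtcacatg
ZFP42: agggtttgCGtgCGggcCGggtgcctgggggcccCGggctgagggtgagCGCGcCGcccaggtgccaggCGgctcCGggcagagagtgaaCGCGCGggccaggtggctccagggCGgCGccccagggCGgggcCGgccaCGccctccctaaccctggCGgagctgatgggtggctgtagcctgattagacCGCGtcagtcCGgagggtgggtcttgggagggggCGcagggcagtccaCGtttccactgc
SOX21: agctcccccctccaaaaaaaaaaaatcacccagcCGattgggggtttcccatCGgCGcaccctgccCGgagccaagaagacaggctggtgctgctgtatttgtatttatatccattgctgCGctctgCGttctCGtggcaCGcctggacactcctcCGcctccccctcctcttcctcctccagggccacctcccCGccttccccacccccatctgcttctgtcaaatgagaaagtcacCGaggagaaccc

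The SOX2 window held 20 CpG, the ZFP42 window 23 and the SOX21 window 11, against a median of 11 over 34788 distinct windows of the same length. Windows with fewer CpG made up 67.5% of all for SOX2, 74.2% for ZFP42 and 49.8% for SOX21. The core of the octamer bound by POU factors, ATGCAAA, was searched on both strands and occurred once before SOX2, where 3.94% of all windows held it, and in neither of the other windows. The SOX motif CATTGT occurred in none of the 3 windows, and 9.29% of all windows held it. The GC box GGGCGG occurred 3 times before ZFP42 and 1 time before SOX2 (42.6% of all windows), and the CCAAT motif 1 time each before SOX2 and SOX21 (32.0% of all windows). ATCAAAG, bound by TCF and LEF factors (2.27% of all windows), and the E-box CACGTG of MYC (6.31%) were found in none of the 3. These matches describe the letters of the windows only.

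SOX2 was a sphere gene in these cells. It held 0, 2 and 1 counts in adherent shCtrl libraries and 541, 663 and 485 counts in shCtrl spheres (31.7, 36.6 and 24.4 CPM). All spheres stood above all adherent libraries. The ratio of the summed counts was 768, with a 95% exact counting interval of 262 to 3726, which covers counting error only. In shSigma cells SOX2 held 0, 1 and 1 counts when adherent and 98, 83 and 94 counts in spheres (4.94, 4.40 and 4.98 CPM), a ratio of 146 (40.1 to 1214). SOX2 was thus detected in spheres of both hairpins, at a lower level in shSigma. The knockdown difference in spheres was -2.69 on the log2 scale (SE 0.15, adjusted p = 9.57e-08), or 6.43 times fewer scaled counts (5.65 to 7.33). In adherent cells SOX2 was at the floor, at most 3 counts per library, in both groups and no fold can be given.

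SOX2 lies on chromosome 3 at 181711925 to 181714436 (GRCh38), inside the long noncoding gene SOX2-OT. SOX2-OT held 14 to 26 counts in each library, so the SOX2 counts were not accompanied by a like change in that transcript. DNAJC19, the nearest tested protein-coding gene at 722 kb, had log2 fold changes of 0.20 between shCtrl spheres and adherent cells (adjusted p = 0.109) and -0.51 for the knockdown in spheres (adjusted p = 4.05e-04). FXR1, 729 kb away on the same side, had -0.59 and -0.34 in the same comparisons, and ATP11B, 1079 kb to the other side, had -0.42 and -0.20. The 40 nearest tested genes had a median of -0.05 for shCtrl spheres and -0.13 for the knockdown in spheres.

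ZFP42 followed the hairpin and not the culture. Adherent shCtrl libraries held 327, 316 and 315 counts (12.6, 13.4 and 12.4 CPM) and shCtrl spheres 215, 242 and 233 counts (12.6, 13.4 and 11.7 CPM). These groups overlapped, and the sphere effect in shCtrl cells was -0.03 on the log2 scale (SE 0.10, adjusted p = 0.840). In adherent shSigma cells all 3 libraries held 0 counts, so that ZFP42 was at least 86.9-fold lower than in shCtrl cells, with 3 counts per library as the floor. Spheres of shSigma cells held 2, 2 and 0 counts, and shCtrl spheres were 181 times higher (70.2 to 664). The knockdown call passed in both cultures (adjusted p = 1.21e-05 and 1.68e-09).

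ZFP42 lies at the end of the long arm of chromosome 4, at 187995771 to 188005046. FAT1, a cadherin of the FAT family and the nearest tested protein-coding gene at 1269 kb, fell with the knockdown by 0.67 on the log2 scale in adherent cells (adjusted p = 2.13e-04) and by 1.12 in spheres (adjusted p = 5.02e-07). The 20 nearest tested genes, all on one side, had medians of -0.04 and -0.12. The loss of ZFP42 counts was thus far larger than the shift of its tested neighbours.

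MYC, which drives ribosome synthesis and cell growth, was detected in all libraries. It held 69.4, 67.9 and 78.9 CPM in adherent shCtrl, 48.8, 56.4 and 49.9 CPM in adherent shSigma, 95.8, 84.9 and 79.2 CPM in sphere shCtrl and 117, 115 and 114 CPM in sphere shSigma libraries. No group overlapped with the group it was compared with. With the knockdown MYC fell by 0.54 on the log2 scale in adherent cells (SE 0.09, adjusted p = 0.00217) and rose by 0.41 in spheres (SE 0.07, adjusted p = 2.55e-04). The 2 knockdown effects differed by 0.90 (spheres minus adherent, SE 0.12, adjusted p = 8.98e-05), and this difference kept its call under all 17 alternatives. Expressed as the sphere effect, MYC rose by 1.18 in shSigma cells (SE 0.07, adjusted p = 1.68e-05) and by 0.26 in shCtrl cells (SE 0.09, adjusted p = 0.0420). The call in shCtrl cells was lost under 6 of 12 alternatives, among them DESeq2 (adjusted p = 0.0598). Left out 1 at a time, adherent shCtrl replicates 1 and 2 and sphere shCtrl replicates 1 and 2 each ended it (adjusted p = 0.126, 0.153, 0.213 and 0.0724), and without sphere shCtrl replicate 1 the value was 0.16.

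The neighbourhood of MYC also moved with the knockdown. The 40 nearest tested genes had a median log2 fold change of -0.42 in adherent cells and -0.43 in spheres, where all tested genes had medians of -0.01 and 0.00. Whether this regional shift has a part in the MYC values was not tested. PVT1, the long noncoding gene beside MYC, held 527 to 1227 counts per library and was at 31.5 ± 1.29 CPM in shSigma spheres, 32.5 ± 1.40 CPM in shCtrl spheres, 45.4 ± 2.29 CPM in adherent shCtrl and 43.9 ± 5.92 CPM in adherent shSigma cells. PVT1 was thus not highest in the group where MYC was.

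KLF4 and KLF5 are related zinc finger factors, of which KLF4 is known from differentiated, non-dividing epithelium and KLF5 from proliferating epithelium. KLF4 held 10.4, 11.6 and 10.4 CPM in adherent shCtrl and 6.81, 6.81 and 5.69 CPM in adherent shSigma cells. In spheres it held 17.7, 13.7 and 15.4 CPM with shCtrl and 11.8, 10.4 and 11.1 CPM with shSigma. KLF4 was thus higher in spheres and lower with the knockdown. KLF5 held 26.0, 24.1 and 26.4 CPM in adherent shCtrl and 51.7, 52.4 and 58.7 CPM in adherent shSigma cells. In spheres it held 16.5, 17.4 and 16.7 CPM with shCtrl and 25.7, 29.6 and 27.8 CPM with shSigma. KLF5 was lower in spheres and higher with the knockdown, the reverse of KLF4 in each of the 4 comparisons. For both genes the shSigma spheres overlapped in range with the adherent shCtrl cells.

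KLF4 rose in spheres by 0.53 on the log2 scale in shCtrl (SE 0.12, adjusted p = 0.00733) and by 0.81 in shSigma cells (SE 0.12, adjusted p = 0.00134). With the knockdown it fell by 0.81 in adherent cells (SE 0.14, adjusted p = 0.00203) and by 0.49 in spheres (SE 0.11, adjusted p = 0.00237). The difference between cultures did not pass (0.26, SE 0.17, adjusted p = 0.279). KLF5 fell in spheres by 0.60 in shCtrl (SE 0.08, adjusted p = 6.36e-04) and by 0.95 in shSigma cells (SE 0.08, adjusted p = 5.80e-05), and it rose with the knockdown by 1.03 in adherent cells (SE 0.07, adjusted p = 4.30e-05) and by 0.71 in spheres (SE 0.08, adjusted p = 1.80e-05). The knockdown effect on KLF5 was smaller in spheres by 0.37 (SE 0.12, adjusted p = 0.0256). That difference was lost under 10 of 17 alternatives, among them DESeq2 (adjusted p = 0.0719) and each of adherent shCtrl replicates 2 and 3, adherent shSigma replicate 3, the 3 sphere shCtrl replicates and sphere shSigma replicates 1 and 3 left out in turn (0.0542 to 0.117). It was -0.25 without adherent shSigma replicate 3 (adjusted p = 0.107).

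SOX9, a factor of epithelial progenitors and cartilage, was higher in spheres and higher with the knockdown. It held 4.53, 5.37 and 5.76 CPM in adherent shCtrl, 13.3, 13.7 and 12.5 CPM in adherent shSigma, 9.95, 10.5 and 10.1 CPM in sphere shCtrl and 18.3, 21.6 and 19.7 CPM in sphere shSigma libraries. The 4 groups did not overlap. SOX9 rose in spheres by 0.96 in shCtrl (SE 0.13, adjusted p = 4.67e-04) and 0.61 in shSigma cells (SE 0.10, adjusted p = 0.00191), and with the knockdown by 1.28 in adherent cells (SE 0.13, adjusted p = 1.70e-04) and 0.96 in spheres (SE 0.10, adjusted p = 4.68e-06). The difference of the knockdown effects was -0.38 (SE 0.15, adjusted p = 0.0811). SOX9-AS1, an antisense transcript beside SOX9 on chromosome 17, also rose with the knockdown, in adherent cells by 2.12 (SE 0.28, adjusted p = 6.89e-04), and in spheres by 1.90 (SE 0.55, adjusted p = 0.0109), with group means of at most 1.23 CPM. The use of strand in counting is not given in the sources used here, so reads of the pair may be mixed.

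SALL4 followed the hairpin. It held 22.7, 26.8 and 25.7 CPM in adherent shCtrl, 18.8, 18.0 and 20.4 CPM in adherent shSigma, 24.8, 26.8 and 23.8 CPM in sphere shCtrl and 14.9, 20.0 and 18.3 CPM in sphere shSigma libraries. Spheres and adherent cells of the same hairpin overlapped, and neither sphere effect passed (0.00, adjusted p = 0.989, in shCtrl and -0.08, adjusted p = 0.580, in shSigma cells). With the knockdown SALL4 fell by 0.46 in adherent cells (SE 0.09, adjusted p = 0.00411) and by 0.51 in spheres (SE 0.11, adjusted p = 0.00153). In adherent cells the call was lost without shCtrl replicate 2, shSigma replicate 1 or shSigma replicate 2 (adjusted p = 0.0673, 0.0561 and 0.0551).

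The other members were at or near 0. NANOG held 0 counts in the adherent shCtrl libraries, 4, 4 and 0 in adherent shSigma, 1 in each of the shCtrl spheres and 1, 2 and 0 in the shSigma spheres. Its retrocopy NANOGP8 held 0 or 1. These counts do not allow a comparison. LIN28B held 6, 2 and 1 counts in adherent shCtrl, 2, 0 and 1 in adherent shSigma, 7, 7 and 7 in sphere shCtrl and 3, 2 and 0 in sphere shSigma libraries. Over the summed counts LIN28B was 4.39 times higher in shCtrl than in shSigma spheres (counting interval 1.61 to 14.9), while the adherent ratio of 2.45 (0.611 to 14.1) allowed no difference.

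POU5F1 was listed at 0 in all 12 libraries, and its copies POU5F1P3 and POU5F1P4 likewise. This 0 gives no information on the level of POU5F1. Within 250 kb of it on chromosome 6 lie 15 other protein-coding genes of the table, the widely expressed HLA-B, HLA-C, VARS2 and TCF19 among them, and the highest count of any gene in that window in any library was 7. The cause of the empty window was not tested. POU5F1B, the copy of POU5F1 elsewhere in the genome, held 0 to 4 counts.

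Scaled to exon length (CPM per kb of annotated exon), the members took different places in the 4 groups. The length was that of all annotated exons merged, 6109 bases for MYC and 3679 for KLF5, and the order of genes depends on it. In adherent shCtrl cells MYC was highest at 11.8 ± 0.97 CPM per kb (SD, n = 3), followed by KLF5 (6.93 ± 0.34), ZFP42 (4.82 ± 0.19), SALL4 (4.34 ± 0.37), KLF4 (2.95 ± 0.20) and SOX9 (1.33 ± 0.16). In shCtrl spheres SOX2 at 12.3 ± 2.44 stood beside MYC at 14.2 ± 1.38, within their spread. ZFP42, KLF5, SALL4 and KLF4 then lay between 4.26 and 4.74 CPM per kb and could not be ordered beyond their spread. In adherent shSigma cells KLF5 led at 14.8 ± 1.05, ahead of MYC at 8.46 ± 0.68, and SOX9 (3.36 ± 0.15) and SALL4 (3.30 ± 0.21) were level within their spread. Before scaling, KLF5 (54.3 ± 3.86 CPM) and MYC (51.7 ± 4.14 CPM) were level there too. MYC led again in shSigma spheres at 18.9 ± 0.27, before KLF5 at 7.53 ± 0.54 and SOX9 at 5.06 ± 0.41, with SOX2 down at 1.90 ± 0.13.

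**Figure D1:**
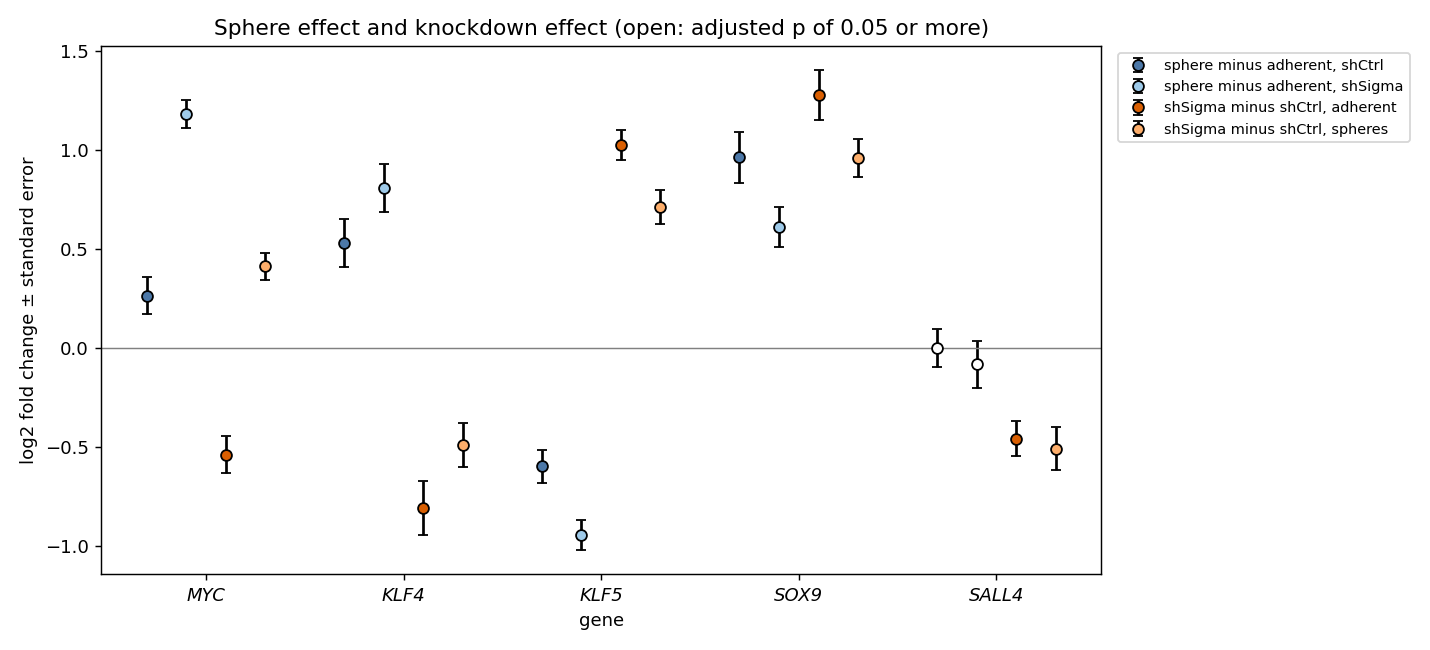
Log2 fold change (y axis) of 5 members (x axis) for the sphere effect and the knockdown effect, with standard errors from edgeR. Open points have an adjusted p of 0.05 or more. SOX2 and ZFP42 are left out because groups at the floor enter most of their comparisons. MYC falls by 0.54 with the knockdown in adherent cells and rises by 0.41 in spheres, and KLF4 and KLF5 have opposite signs throughout.

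Calls were counted over the members and over all genes tested. Between shCtrl spheres and adherent cells 5 of the 7 members tested passed an adjusted p under 0.05, 4 higher and 1 lower, and 1 of them (SOX2) also had an absolute log2 fold change over 1. Of all 13800 genes tested there, 53.7% passed, 27.4% higher and 26.3% lower, and 15.8% were past the fold threshold. In shSigma cells 5 of 6 passed, again 4 higher and 1 lower, with SOX2 and MYC past the fold threshold, against 47.1% of 13622 genes (21.9% higher, 25.2% lower and 9.32% past the fold threshold). The sphere effects of the 2 hairpins come from separate libraries. SOX2, KLF4, MYC, SOX9 and KLF5 were called in the same direction in both hairpins. For MYC the call in shCtrl cells was lost under 6 of 12 alternatives. The share of all genes called alike in both hairpins is not given here.

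The knockdown changed 6 of 6 tested members in adherent cells, 2 higher and 4 lower, with ZFP42, SOX9 and KLF5 past the fold threshold. Of all 13764 genes 50% passed, 22.3% higher and 27.7% lower, and 13.7% were past the fold threshold. In spheres 7 of 7 passed, 3 higher and 4 lower, with SOX2 and ZFP42 past the fold threshold, against 61.1% of 13774 genes (30.2% higher, 30.9% lower and 13.1% past the fold threshold). KLF4, ZFP42 and SALL4 fell and SOX9 and KLF5 rose in both cultures, and MYC was the member with opposite signs. The interaction of hairpin and culture passed for 2 of 7 members, MYC higher and KLF5 lower in spheres, where 28.4% of 14175 genes passed (12.7% higher, 15.6% lower and 8.54% past the fold threshold). For SOX2 and ZFP42 this test rests on groups at the floor, and it did not pass (adjusted p = 0.219 and 0.0532).

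Sphere induction in control cells and the knockdown effect in spheres share the shCtrl sphere libraries, so their values are set side by side only. SOX2 rose and then fell (9.40 and -2.69, the first a fitted value against a group at the floor), as did KLF4 (0.53 and -0.49). KLF5 had the opposite pair (-0.60 and 0.71). SOX9 rose in both (0.96 and 0.96), as did MYC (0.26 and 0.41). ZFP42 and SALL4 had no called sphere effect, with fitted knockdown values of -7.37 and -0.51. No single direction described the group, since sphere-high factors were both lower and higher with the knockdown.

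Among the other genes of the SOX family, SOX21 was also high in shCtrl spheres. SOX21, a repressor that binds the same motif as SOX2, held 0 counts in all adherent libraries, 220, 263 and 225 counts in shCtrl spheres and 2, 1 and 3 counts in shSigma spheres. It was at least 107-fold higher in shCtrl spheres than in adherent shCtrl cells, and 123 times higher (56.4 to 338) than in shSigma spheres. SOX21-AS1, which overlaps it on the other strand of chromosome 13, moved in the same way from 20.9 ± 1.43 CPM in shCtrl spheres to 0.31 ± 0.18 CPM in shSigma spheres, and reads of the pair may be mixed. SOX4, known from progenitors and epithelial plasticity, rose in spheres of both hairpins, from 35.8 ± 0.76 to 183 ± 25.5 CPM in shCtrl (log2 2.35, SE 0.10, adjusted p = 1.86e-06) and from 29.4 ± 0.93 to 128 ± 7.14 CPM in shSigma cells (2.14, adjusted p = 6.82e-07). SOX4 fell with the knockdown by 0.52 in spheres (adjusted p = 7.25e-04). SOX17, a factor of endoderm, held 8 to 18 counts in shCtrl and 0 or 1 in shSigma libraries.

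**Figure D2:**
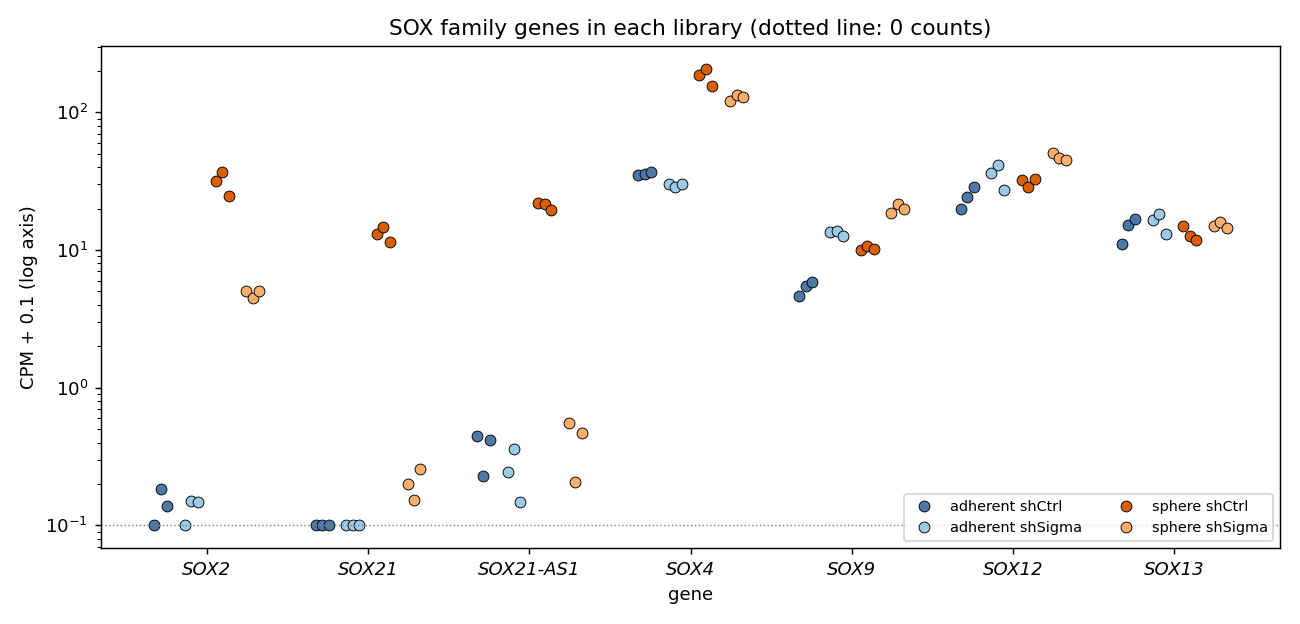
CPM plus 0.1 (y axis, log scale) of 6 SOX family genes and SOX21-AS1 (x axis) in each of the 12 libraries. Points at the dotted line have 0 counts. SOX2, SOX21 and SOX21-AS1 are high in shCtrl spheres, SOX4 is high in spheres of both hairpins, and SOX9 is higher with shSigma in each culture.

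Of the 18 family members besides SOX2 and SOX9, 8 were tested between shCtrl spheres and adherent cells, with 3 higher and 1 lower, and 7 for the knockdown in spheres, with 1 higher and 3 lower. In shSigma cells 2 of 6 rose in spheres, and in adherent cells 1 of 5 fell with the knockdown. Of all genes 53.7%, 61.1%, 47.1% and 50% were called in these comparisons, and the share called in the family (4 of 8, 4 of 7, 2 of 6 and 1 of 5) was below that in each. SOX8, a relative of SOX9, rose in shCtrl spheres from 0.24 ± 0.05 to 1.36 ± 0.26 CPM and fell with the knockdown in spheres by 1.74 (SE 0.37, adjusted p = 0.00155).

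The wider pluripotency network was mostly silent in the line. Of 30 further network genes, 8 were tested, and LIN28A, the relative of LIN28B, held 5 to 7 counts in adherent shCtrl libraries and 0 to 4 in all others. The knockdown lowered 6 of these 8 genes and raised 1 in adherent cells, and lowered 5 and raised 3 in spheres, so that 7 and 8 of 8 were called where 50% and 61.1% of all genes were. Their median log2 fold changes were -1.06 and -0.79, with -0.01 and 0.00 over all genes tested. TFCP2L1, a factor of naive pluripotency, fell from 13.4 ± 2.10 to 4.65 ± 0.13 CPM in adherent cells (-1.58, SE 0.14, adjusted p = 9.87e-05) and by 1.57 in spheres (SE 0.14, adjusted p = 2.40e-06), with no called sphere effect, the same order as SALL4. DNMT3B, a de novo DNA methyltransferase, fell by 1.06 and 1.07 (adjusted p = 2.99e-04 and 1.93e-05). SALL2, a relative of SALL4, fell by 1.66 in spheres (SE 0.09, adjusted p = 2.09e-08). NR5A2, a nuclear receptor that can activate POU5F1, rose instead, in spheres by 2.02 in shCtrl and 1.84 in shSigma cells, and with the knockdown by 0.96 and 0.82. Between spheres and adherent cells 2 of the 8 rose and 4 fell in shCtrl, and 2 rose and 3 fell in shSigma cells.

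The KLF family did not follow KLF4 or KLF5 as a whole. Of 15 other family genes, 12 were tested between shCtrl spheres and adherent cells, with 4 higher and 6 lower, and 13 in shSigma cells, with 6 higher and 5 lower. The knockdown raised 4 and lowered 4 of 13 in adherent cells and raised 7 and lowered 2 of 12 in spheres. The calls made 10 of 12 and 11 of 13 for the sphere effects, where 53.7% and 47.1% of all genes were called, and 8 of 13 and 9 of 12 for the knockdown, against 50% and 61.1%. The medians for the knockdown were 0.19 and 0.27, with -0.01 and 0.00 over all genes. KLF2, known from endothelium and from naive pluripotent cells, rose in all 4 comparisons, by 2.11 and 2.32 in spheres of shCtrl and shSigma cells and by 1.03 and 1.28 with the knockdown in adherent cells and spheres. KLF8 fell with the knockdown by 1.53 in adherent cells (adjusted p = 3.70e-05) and 1.66 in spheres (adjusted p = 1.08e-06), and KLF11 rose by 0.99 and 1.08. KLF9, a target of glucocorticoids, rose with the knockdown in adherent cells (0.95, adjusted p = 7.49e-05) and had a value of 0.01 in spheres.

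Around MYC, 11 of the 12 genes of the MAX network were tested. MYCN held 0 counts in every library, and MYCL, another MYC gene, fell in shCtrl spheres by 1.10 (SE 0.15, adjusted p = 5.27e-04). Partners that oppose MYC at DNA were among the genes that rose. MXD4 was at 34.0 ± 15.3 CPM in adherent shCtrl and 94.6 ± 33.9 CPM in adherent shSigma cells, a rise of 1.43 (SE 0.42, adjusted p = 0.0317). MXI1 rose with the knockdown by 0.61 and 0.58. In the network 4 genes rose and 3 fell with the knockdown in adherent cells, and 7 rose and 1 fell in spheres, or 7 and 8 of 11 called where 50% and 61.1% of all genes were. Between spheres and adherent cells 4 rose and 2 fell in shCtrl, and 3 rose and 1 fell in shSigma cells, or 6 and 4 of 11 against 53.7% and 47.1%.

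LIN28B acts through let-7, and a list of 18 genes of this axis was followed, 16 of them tested. The list holds LIN28A and microRNA processing factors such as DICER1 and DROSHA beside let-7 targets. Its counts are therefore not those of let-7 targets alone. HMGA2, an oncofetal chromatin protein and let-7 target, fell in spheres by 2.03 in shCtrl and 1.54 in shSigma cells, and rose with the knockdown by 1.49 in adherent cells and 2.01 in spheres (SE 0.21, adjusted p = 6.00e-06). IGF2BP1 and IGF2BP3, RNA-binding proteins of fetal tissue and let-7 targets, rose with the knockdown in adherent cells by 1.49 and 1.35. NRAS, a growth signalling GTPase and let-7 target, fell there by 1.16 (SE 0.08, adjusted p = 3.84e-05), and more genes of the list fell than rose. In the list 4 genes rose and 8 fell in shCtrl spheres, 1 rose and 7 fell in shSigma spheres, 5 rose and 7 fell with the knockdown in adherent cells, and 6 rose and 4 fell in spheres. The calls made 12, 8, 12 and 10 of 16 in this order, against 53.7%, 47.1%, 50% and 61.1% of all genes.

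KLF4 and MYC are also early response genes of growth factors, so a list of 24 such genes was read beside them. FOSB and EGR1, early response factors, rose in spheres of both hairpins, EGR1 from 21.1 ± 4.79 to 240 ± 73.2 CPM in shCtrl (3.50, SE 0.28, adjusted p = 8.87e-05) and by 3.49 in shSigma cells. The list was split elsewhere. In spheres 10 rose and 9 fell of 23 tested in shCtrl, and 11 rose and 8 fell in shSigma cells, while the knockdown raised 4 and lowered 11 of 21 in adherent cells and raised 8 and lowered 10 of 23 in spheres. The calls made 19 and 19 of 23, 15 of 21 and 18 of 23, against 53.7%, 47.1%, 50% and 61.1% of all genes. A list of 16 genes of Wnt signalling, which acts upstream of MYC, held effectors such as CTNNB1 and TCF7L2 beside feedback genes. Of these genes 13 were tested, and their counts do not report Wnt output alone. In spheres 6 rose and 4 fell in shCtrl, and 5 rose and 3 fell in shSigma cells. The largest of these changes were those of ID2, which fell by 4.63 in shCtrl and 3.72 in shSigma cells. RNF43 rose by 2.98 and 2.81. The knockdown raised 3 and lowered 2 in adherent cells and raised 9 and lowered 3 in spheres. The calls made 10, 8, 5 and 12 of 13 in this order, so that the share was below that of all genes (50%) for the knockdown in adherent cells and above it (61.1%) in spheres. A knockdown effect that differed between cultures was called for 9 of the 13, 6 higher and 3 lower in spheres, against 28.4% of all genes. AXIN2, a feedback inhibitor of Wnt signalling, was among those higher (1.66, adjusted p = 0.00114), being 0.20 in adherent cells (adjusted p = 0.536) and 1.93 in spheres (SE 0.16, adjusted p = 9.78e-07). NKD1, another feedback inhibitor, was among those lower (-1.07, SE 0.21, adjusted p = 0.00208), being -0.33 in adherent cells (adjusted p = 0.0781) and -1.34 in spheres (SE 0.15, adjusted p = 1.24e-05). LEF1 fell with the knockdown by 1.80 in adherent cells and 1.51 in spheres.

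Epithelial markers were called in all 4 comparisons. The knockdown in spheres lowered 7 and raised 2 of 10, where 30.9% of all genes were called lower and 30.2% higher. Spheres of shCtrl cells had 9 of the 10 higher than adherent cells, where 27.4% of all genes were called higher. In adherent cells, where SOX2 was at the floor, the knockdown raised 5 and lowered 4 of 9, against 50% of all genes called. In shSigma cells 3 rose and 2 fell of 8 in spheres, against 47.1% of all genes called. CDH1 (E-cadherin) stood at 727 ± 46.3 CPM in shCtrl spheres, 27.8 ± 3.34 CPM in shSigma spheres and 26.8 ± 0.09 CPM in adherent shCtrl cells, and GRHL2, an epithelial transcription factor, held 35.4 ± 1.41 CPM in shCtrl spheres and 1 count in each shSigma library. Of 12 proliferation markers, 8 fell in shCtrl spheres, and 11 fell with the knockdown in adherent cells. In spheres 10 fell and 2 rose with the knockdown. Of all genes 26.3%, 27.7% and 30.9% were called lower in these comparisons. The part of these marker lists in the SOX2, KLF4, KLF5 and MYC values was not tested.

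The remaining marker lists were largely silent. Of the luminal prostate list of 9 genes, 4 or 5 were at the floor in each group. Of the 5 basal markers, 3 were at the floor in each group, and KRT15 was the 1 tested, rising in spheres by 3.59 in shCtrl and 2.11 in shSigma cells. Among 8 neuroendocrine markers, 5 were at the floor in each group. In shSigma spheres 1 of 3 tested rose, SYP by 1.38, and 2 fell, NCAM1 by 1.85. With the knockdown in adherent cells 2 rose, NCAM1 by 4.10, and 1 fell, SYP by 1.43. Of all genes 47.1% and 50% were called in these comparisons. Of 12 stromal, endothelial and blood markers, 5 to 8 were at the floor, and COL1A1 rose in shCtrl spheres by 2.12. Of 13 near copies and overlapping transcripts of the members, 9 were in the table and at most 3 were tested in a comparison, with 1 call each in the sphere and knockdown comparisons.

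Likeness to other genes was described over the 12 libraries by Pearson's r of log2(CPM + 1) among 12065 protein-coding genes with a mean of at least 1 CPM. The points fall into 4 groups and share libraries, so that r describes a common order of groups. The genes most like SOX2 were FGL1, DNAJC12 and CXADR (r 0.996, 0.994 and 0.992), which encode a secreted fibrinogen-like protein, a J-domain cochaperone and a junction receptor. FGL1 was at 162 CPM in shCtrl spheres and 8.40 CPM in shSigma spheres, and at 0.016 CPM or less when adherent. ZFP42 was most like ROBO1, an axon guidance receptor, TKTL1, a transketolase-like enzyme, and KRBOX1 (r 0.999, 0.999 and 0.998). ROBO1 held 69.0 and 63.9 CPM in the shCtrl groups and 0.033 and 0.154 CPM in the shSigma groups, and 265 genes had an r above 0.95 with ZFP42.

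The other members had r of 0.938 to 0.997 with their 3 nearest genes. The number of genes with an r above 0.95 was 120 for SOX2, 153 for KLF5, 110 for SOX9, 9 for KLF4 and 4 for MYC. MYC was most like TMEM109, GNAL and LRP4 (r 0.977, 0.966 and 0.959), KLF4 like TMEM63C, GOLM1 and SDR39U1 (0.973, 0.972 and 0.970) and KLF5 like ZBTB5, BDNF and ITGB3 (0.992, 0.991 and 0.990). SOX9 was most like THBS3, KSR1 and NUPR1 (0.997, 0.995 and 0.990). SALL4 had no gene above 0.95, the nearest being FBXO22, ZNF326 and CHDH (0.943, 0.939 and 0.938).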

How the data were processed

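RNA of DU145 cells, with a control hairpin (shCtrl) or the hairpin labelled shSigma, adherent and as tumor spheres, was sequenced in 3 replicates each, 800 ng of total RNA per library, with single-end reads of 75 nt. The authors aligned reads to GRCh38.p12 with STAR, version 2.6.1c per the submitters' processing notes, and deposited raw counts per gene. The annotation, use of strand and handling of reads with several alignments are not given in the sources used here. No column of counts was left unused (0), and 26153 of 28747 identifiers had a symbol in GENCODE release 44.

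From the deposited counts, each comparison of 2 groups was fitted on its own 6 libraries with edgeR 4.0.16 (R 4.3.3), with TMM scaling, filterByExpr at a minimum count of 10, robust quasi-likelihood F-tests (two-sided) and p-values adjusted by Benjamini-Hochberg across every gene that passed the filter. The interaction used all 12 libraries. Calls had an adjusted p under 0.05, and the fold threshold was an absolute log2 fold change over 1. Groups with at most 3 counts in each library were at the floor. Ratios of summed counts have exact 95% conditional intervals. Fitted values used a prior count of 0.125 and are no bounds at the floor. The procedure was tested on simulated data.

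Alternatives were DESeq2 1.42.0, its size factors, no filter, at least 10 counts in every library, a replicate block, 1 fit of all 12 libraries and each library left out in turn. The targeted gene and 1 marker are not reported here. The 10 members and 14 gene lists were chosen with earlier results of these data known. Named were all members, defining markers, near copies and overlapping transcripts, and the 3 genes most like each member. List genes were named from those with a called change past the fold threshold at 1 CPM or more. These were not always the largest changes of their list. Other list genes (SOX17, LIN28A, MXI1) and neighbours on the chromosome were named after their values were seen.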

Additional observations from a re-analysis of the deposited data

Results flagged for a closer look

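By the interaction of hairpin and culture in edgeR, 2 of 7 tested members had a knockdown effect that differed between spheres and adherent cells. Of all 14175 genes tested, 28.4% were called, so the count of members was near the share of all genes. The difference for MYC was 0.90 on the log2 scale (spheres minus adherent, adjusted p = 8.98e-05), with lower levels in all 3 adherent shSigma libraries and higher levels in all 3 shSigma spheres than in any shCtrl library of that culture. The difference for KLF5 was -0.37 (adjusted p = 0.0256), with higher levels in all shSigma libraries of both cultures. The call for KLF5 was lost under 10 of 17 alternatives.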

How the results depend on the processing

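Of 425 values of single members under the alternatives, 392 kept their direction and their side of the threshold, 19 lost the call, 2 gained it and 12 changed sign. All changes of sign were values near 0 that were not called, for ZFP42 without adherent shCtrl replicate 2 (sphere effect in shCtrl 0.0039) and for SALL4. The sphere effect of SALL4 in shCtrl cells was -0.018 with DESeq2, -0.018 with its size factors and -0.015 without a filter, and lay between -0.10 and 0.050 with libraries left out. In shSigma cells it lay between -0.17 and 0.032, and its interaction between -0.18 and 0.029.

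The number of members called for the interaction was 2, and it was 1 with DESeq2 and 1 without a filter on low counts, where KLF5 lost its call, and 1 to 2 with each library left out, the lower value without adherent shCtrl replicate 2, adherent shSigma replicate 3, each sphere shCtrl replicate or sphere shSigma replicate 1. Without adherent shCtrl replicate 3 or sphere shSigma replicate 3 it stayed at 2 because KLF5 lost its call and ZFP42 gained one (3.71, adjusted p = 0.0489, and 4.24, adjusted p = 0.0286, fitted with groups at the floor). Correlations of deviations of same-numbered libraries ran from -0.73 to 0.29, so the replicate numbers gave no sign of pairing. Those of differently numbered libraries ran from -0.60 to 0.71, both ends in adherent cells. These correlations cannot decide whether libraries were paired in another way. With the replicate block the sphere effect on MYC in shCtrl cells was 0.26 (adjusted p = 0.0919), below the call, and no other call of a member changed. With 16472722 counts in the smallest library, NANOG, LIN28B and the low groups of SOX2 and ZFP42 are known only to within counting bounds.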
